A study of Mus musculus with 12 samples.

Results

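The TNF receptor superfamily and its death ligands were analysed in lymph node (LN) T cells as a set of 10 genes, comprising the receptors *Tnfrsf1a*, *Tnfrsf1b*, *Tnfrsf9*, *Tnfrsf25*, *Tnfrsf26*, *Cd27* and *Fas* and the ligands *Fasl*, *Tnfsf10* and *Tnfsf14*. The genes were taken by symbol, as TNF family members of T cells other than those that mark regulatory T cells. The choice was made with earlier results of these data known. Counts of these genes set beside the share of all tested genes are therefore a description and not a test of the set. All 10 were found among the 49585 genes of the count table, and all 10 were among the 13118 genes with enough counts to be tested. RNA was sequenced from 4 groups of sorted LN T cells with 3 samples each. B6 CD4+ and B6 CD8+ T cells came from C57BL/6 (B6) mice. CD8.1 and CD8.2 cells came from CD8Dual mice (also labelled 8in4), a strain whose *Cd4* locus carries coding sequence for a CD8 co-receptor (CD8α.1 with CD8β) and whose *Cd8* locus is unaltered and yields CD8α.2 with CD8β. CD8.1 cells thus carry a CD8 co-receptor made from the *Cd4* locus and CD8.2 cells carry one made from the *Cd8* locus. All mice were male and 6 to 10 weeks old, the cells were TCRβ+ (antibody H57) and CD62L+ and, by the study's methods, also CD44-, and each library was made from pooled sorted cells. Nothing in the labels says that samples of a group came from separate mice, so *P* values measure the spread between these samples only.

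Receptors of this family are trimeric surface proteins that bind trimeric ligands on neighbouring cells. Receptors with a death domain in the cytoplasmic tail (TNFR1, Fas and DR3, encoded by *Tnfrsf1a*, *Fas* and *Tnfrsf25*) can assemble caspase-8 on the adaptor FADD and kill the cell, or signal to NF-κB, whereas receptors without it (TNFR2, 4-1BB and CD27, encoded by *Tnfrsf1b*, *Tnfrsf9* and *Cd27*) recruit TRAF adaptors and act as co-stimulators. In T cells Fas ligand and TRAIL (*Tnfsf10*) are known as killing ligands, and LIGHT (*Tnfsf14*) as a co-stimulatory ligand. The comparison of CD4+ with CD8+ T cells addresses how helper and cytotoxic T cells differ, and the one between both CD8Dual groups whether the same differences exist between T cells that all carry CD8 co-receptors.

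The promoters of *Fasl*, *Tnfsf14* and *Tnfrsf25* are shown because these 3 genes had the widest range of group means among the 10. Each sequence is the 250 bases before the annotated start on the gene's own strand, 5′ to 3′, from RefSeq on GRCm38.p6. *Fasl* lies at chr1:161788496-161788745 on the minus strand, *Tnfsf14* at chr17:57194182-57194431 on the minus strand and *Tnfrsf25* at chr4:152115684-152115933 on the plus strand. Capitals mark the core motif of Runx factors, TGTGGT, or its reverse complement, ACCACA.
Fasl: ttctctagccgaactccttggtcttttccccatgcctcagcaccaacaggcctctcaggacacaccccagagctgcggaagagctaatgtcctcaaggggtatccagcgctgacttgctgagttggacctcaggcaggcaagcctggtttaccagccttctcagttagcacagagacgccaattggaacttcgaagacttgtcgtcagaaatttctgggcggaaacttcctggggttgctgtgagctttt
Tnfsf14: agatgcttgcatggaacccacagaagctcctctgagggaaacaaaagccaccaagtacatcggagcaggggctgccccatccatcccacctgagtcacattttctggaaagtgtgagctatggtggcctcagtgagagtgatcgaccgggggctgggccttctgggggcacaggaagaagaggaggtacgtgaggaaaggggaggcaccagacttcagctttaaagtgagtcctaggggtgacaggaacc
Tnfrsf25: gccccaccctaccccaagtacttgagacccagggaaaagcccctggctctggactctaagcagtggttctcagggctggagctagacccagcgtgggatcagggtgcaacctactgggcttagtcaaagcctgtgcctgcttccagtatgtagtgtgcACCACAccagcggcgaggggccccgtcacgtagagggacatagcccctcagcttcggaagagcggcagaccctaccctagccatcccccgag
Runx3 is a factor of the cytotoxic lineage, which is why this motif was searched. Promoter windows, from 250 bases before to 50 after a start, were given for 9 of the 10 genes (11 windows, none for *Tnfrsf26*). The motif was present on either strand in 3 of these 11 windows, and in 16.8% of all 32851 promoter windows of the same 300-base length. It began 92 bases before the start in the first window of *Tnfrsf25*, which is the one printed, and 36 bases after the start in *Tnfsf14*. In the second window of *Tnfrsf9* it began 10 bases after the start. It was not in the second window of *Tnfrsf25*, the first window of *Tnfrsf9* or the window of *Fasl*. The motif is short, and a match is a description of letters and not a binding site.

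Libraries held 18667474 to 37110502 counts, and levels are given as counts per 1000000 (CPM) after TMM scaling. In the libraries of a group replicates differed by more than sampling noise, with CD8.1 replicate 1 and CD8.2 replicate 3 furthest from the others of their group. The 10 T cell markers summed to 6225 to 6911 CPM in every group. The altered locus was checked by *Cd4*, which stood at 969 ± 53.0 CPM in B6 CD4+, 0.244 ± 0.120 CPM in B6 CD8+, 49.7 ± 2.27 CPM in CD8.1 cells and 1.47 ± 0.341 CPM in CD8.2 cells (mean ± SD, n = 3 in each group). In the same order *Cd8a* was at 1.17 ± 0.428, 1423 ± 48.8, 192 ± 11.5 and 1460 ± 30.4 CPM. *Cd8b1* was at 33.2 ± 2.87, 2235 ± 103, 193 ± 31.7 and 2002 ± 6.21 CPM. The source of the *Cd4* reads in CD8.1 cells was not tested. *Zbtb7b*, which encodes the helper factor ThPOK, was at 159 ± 5.11 CPM in B6 CD4+ and 154 ± 31.8 CPM in CD8.1 cells, against 0.931 ± 0.249 and 1.91 ± 0.267 CPM in B6 CD8+ and CD8.2 cells. Markers of regulatory T cells differed between the groups. The 10 regulatory T cell markers summed to 221 to 325 CPM in B6 CD4+, 71.5 to 76.1 CPM in B6 CD8+, 559 to 639 CPM in CD8.1 cells and 62.0 to 65.2 CPM in CD8.2 cells. The 10 memory or effector markers summed to 217 to 274, 2127 to 2579, 487 to 562 and 1501 to 1588 CPM in the same order, and the 6 natural killer cell markers to 1.00 to 2.04, 9.33 to 15.1, 3.13 to 4.20 and 3.62 to 5.33 CPM. The 6 B cell markers summed to 72.4 to 88.0, 61.7 to 76.0, 99.0 to 152 and 71.1 to 125 CPM, and the 6 myeloid markers to 65.9 to 81.4, 76.8 to 79.7, 98.2 to 107 and 79.7 to 103 CPM. No marker of these lists was at 0 in all samples of any group. In bulk RNA of this kind, fewer cells of a type and less RNA per cell cannot be told apart.

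Per kilobase of exon, *Cd27* had the highest level of the 10 genes in every group (88.4 to 101 CPM per kb over the 4 group means). *Tnfrsf1b* was at 22.7 to 31.2 CPM per kb and *Tnfrsf1a* at 16.2 to 23.7 CPM per kb. *Fasl* (0.381 to 3.90 CPM per kb) and *Tnfsf14* (1.20 to 5.44 CPM per kb) were the lowest of the 10 genes, *Fasl* in the cytotoxic and *Tnfsf14* in the helper groups. On the log2 CPM scale, the group means spanned 3.28 for *Fasl*, 2.16 for *Tnfsf14*, 1.91 for *Tnfrsf25* and 1.59 for *Tnfrsf9*, and 1.97%, 5.27%, 6.55% and 8.76% of all tested genes had a wider span. The other 6 genes spanned 0.78 or less, down to 0.19 for *Cd27*, and 86.0% of tested genes had a wider span than *Cd27*.

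**Figure D1:**
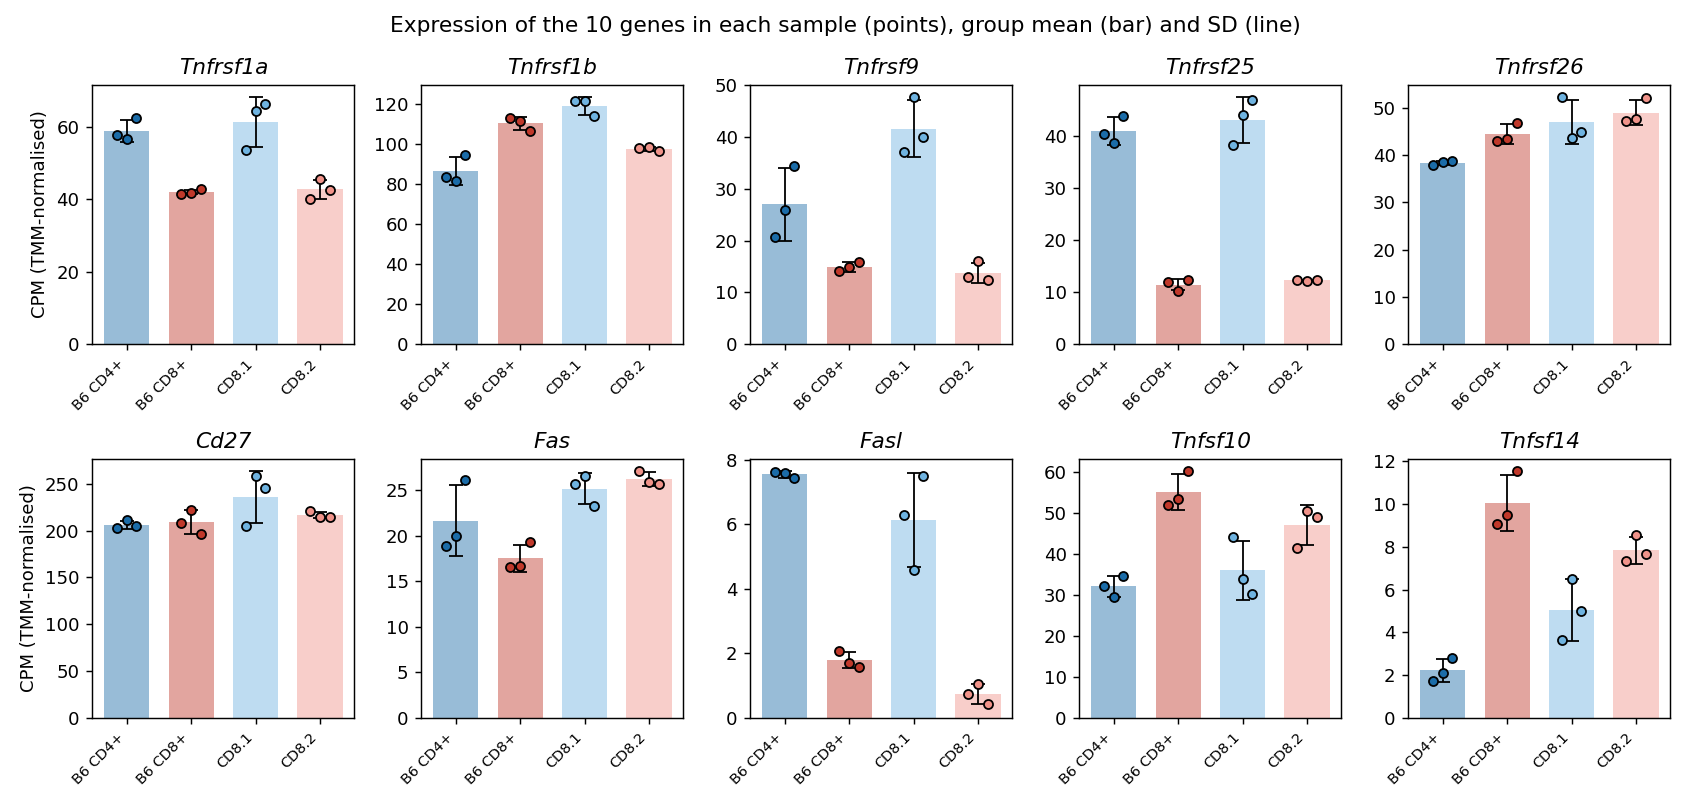
CPM after TMM scaling (vertical axes, each from 0) of the 10 genes in the 3 samples of each group (points), with the group mean (bar) and SD (line). *Tnfrsf25* and *Fasl* are high in B6 CD4+ and CD8.1 cells, *Tnfsf14* is lowest in B6 CD4+ T cells, and *Cd27* lies between 196 and 258 CPM in all samples.

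Helper and cytotoxic T cells of B6 mice differed in 7 of the 10 genes (adjusted *P* under 0.05, edgeR quasi-likelihood test with Benjamini-Hochberg adjustment), 4 higher and 3 lower in CD4+ T cells, where 23.1% of all tested genes differed (11.4% higher and 11.7% lower). CD8.1 and CD8.2 cells also differed in 7 genes, 5 higher and 2 lower in CD8.1 cells, against 28.7% of all tested genes (14.9% higher and 13.8% lower). The 7 genes were the same in both strains, and 6 of them changed in the same direction. Blocked on replicate number inside each strain, 8 genes passed in B6 mice, *Fas* being the added one, and 7 in CD8Dual mice. A fit to only the groups compared gave 7 genes in B6 mice. In CD8Dual mice it gave 5, as *Tnfsf10* (adjusted *P* = 0.0876) and *Tnfsf14* (adjusted *P* = 0.0519) no longer passed. Each of these calls in CD8Dual mice held in 15 of 21 alternatives. *Tnfrsf25*, *Fasl*, *Tnfrsf9* and *Tnfrsf1a* were higher in the helper T cells of both strains, *Tnfsf10* and *Tnfsf14* were lower, and *Tnfrsf1b* went opposite ways. The median log2 fold change of all 10 genes was 0.14 in B6 and 0.21 in CD8Dual mice, against −0.00110 and −0.00465 over all tested genes. No sample of the 2 groups overlapped in 8 of the 10 genes in B6 mice, against 39.0% of all tested genes, and in 6 of the 10 in CD8Dual mice, against 40.7%. By the study's own limit for a differentially expressed gene, a fold change above 5 with unadjusted *P* under 0.05, 0 of the 10 genes counted in B6 mice, where 3.29% of tested genes did, and 1, *Fasl*, in CD8Dual mice, where 3.32% did. The limit was applied here to the edgeR fold changes and *P* values, and the study's own list of such genes was not compared.

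**Figure D2:**
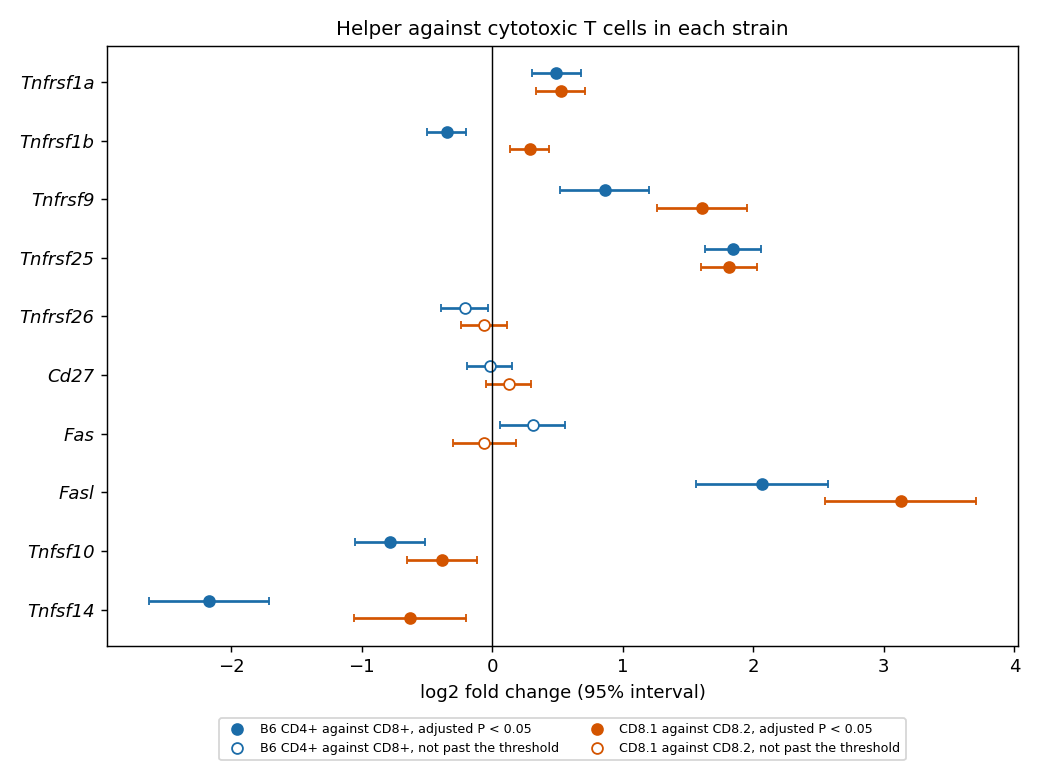
Log2 fold change with its 95% interval (horizontal axis) of each gene between helper and cytotoxic T cells, in B6 mice (blue) and CD8Dual mice (orange). Filled points have an adjusted *P* under 0.05, and only *Tnfrsf1b* has filled points on opposite sides of 0, at −0.35 in B6 and 0.29 in CD8Dual mice.

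Among the death domain receptors, *Tnfrsf25* was the one that separated the lineages most. It encodes DR3, the receptor of the ligand TL1A, and lies at chr4:152115934-152120119 on the plus strand. Its levels were 40.5, 38.6 and 43.8 CPM in B6 CD4+, 11.9, 10.2 and 12.2 CPM in B6 CD8+, 38.3, 44.1 and 46.9 CPM in CD8.1 cells and 12.3, 12.1 and 12.3 CPM in CD8.2 cells. All 6 helper samples were above all 6 cytotoxic samples. The difference was 3.59-fold in B6 mice (log2 fold change 1.85, SE 0.101, adjusted *P* = 1.45e-09) and 3.52-fold in CD8Dual mice (1.82, SE 0.100, adjusted *P* = 2.27e-09). The strains differed by −0.03 in this log2 change (95% interval −0.33 to 0.27).

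*Tnfrsf1a*, which encodes the death domain receptor of TNF, lies at chr6:125349362-125362484 on the plus strand. It stood at 57.8, 56.7 and 62.4 CPM in B6 CD4+, 41.5, 41.7 and 42.8 CPM in B6 CD8+, 53.5, 64.3 and 66.2 CPM in CD8.1 cells and 40.0, 45.5 and 42.6 CPM in CD8.2 cells. The helper samples were again all above the cytotoxic samples. It was higher in CD4+ T cells by a log2 fold change of 0.49 (SE 0.0883, adjusted *P* = 0.000647) and in CD8.1 cells by 0.52 (SE 0.0883, adjusted *P* = 0.000394). Between the strains, neither helper T cells (0.06, 95% interval −0.13 to 0.24) nor cytotoxic T cells (0.02, 95% interval −0.17 to 0.21) differed past the threshold. *Tnfrsf1a* and *Cd27* lie on chromosome 6 not far from *Cd4* (chr6:124864692-124888221), the locus altered in CD8Dual mice.

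*Fas*, the receptor of Fas ligand (chr19:34290666-34327772, plus strand), showed no lineage difference past the threshold in either strain in the fit without a replicate block. Its levels were 18.8, 20.0 and 26.1 CPM in B6 CD4+ and 16.5, 16.7 and 19.2 CPM in B6 CD8+ T cells, and 25.6, 26.5 and 23.2 CPM in CD8.1 cells and 27.1, 25.9 and 25.6 CPM in CD8.2 cells. The samples of CD4+ and CD8+ T cells overlapped, as did those of CD8.1 and CD8.2 cells. At each replicate number, though, *Fas* was higher in the B6 CD4+ than in the B6 CD8+ sample. Every CD8.2 sample was above every B6 CD8+ sample. The log2 fold change between CD4+ and CD8+ T cells was 0.31 (SE 0.117, adjusted *P* = 0.072), and blocking on replicate number inside each strain gave 0.30 with an adjusted *P* of 0.0326 (adjusted *P* 0.0315 to 0.342 over all alternatives). Between CD8.1 and CD8.2 cells it was −0.06 (95% interval −0.30 to 0.18).

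*Tnfrsf9* encodes the co-stimulatory receptor 4-1BB, which is induced by T cell activation and is also known on regulatory T cells (chr4:150914562-150946102, plus strand, within the span of *Camta1* on the other strand but sharing no exon with it). It stood at 20.6, 25.8 and 34.5 CPM in B6 CD4+, 14.0, 14.8 and 15.8 CPM in B6 CD8+, 37.0, 47.7 and 40.1 CPM in CD8.1 cells and 12.9, 15.9 and 12.3 CPM in CD8.2 cells. CD8.1 samples were the highest, B6 CD4+ samples came next, and the samples of both cytotoxic groups overlapped. The difference between lineages was a log2 fold change of 0.86 (SE 0.160, adjusted *P* = 0.000861) in B6 and 1.61 (SE 0.161, adjusted *P* = 2.4e-06), or 3.05-fold, in CD8Dual mice. *Foxp3*, the lineage factor of regulatory T cells, moved with it, at 32.6, 37.8 and 44.6 CPM in B6 CD4+ and 102, 149 and 168 CPM in CD8.1 cells, against 0.182 to 0.529 CPM in B6 CD8+ and 0.809 to 1.46 CPM in CD8.2 cells. Of the 10 regulatory T cell markers, 9 were higher in CD4+ than in CD8+ T cells, 10 were higher in CD8.1 cells than in CD8.2 cells and 9 were higher in CD8.1 cells than in B6 CD4+ T cells, and their part in the result for *Tnfrsf9* was not tested.

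*Tnfrsf1b*, which encodes TNFR2, the TNF receptor without a death domain (chr4:145213463-145246870, minus strand), was the gene whose lineage difference had opposite signs in the 2 strains. Its levels were 83.6, 81.8 and 94.5 CPM in B6 CD4+ and 113, 112 and 107 CPM in B6 CD8+ T cells, and 122, 122 and 114 CPM in CD8.1 cells and 98.1, 98.5 and 96.6 CPM in CD8.2 cells. The CD4+ samples were all below the CD8+ samples, whereas the CD8.1 samples were all above the CD8.2 samples. *Tnfrsf1b* was lower in CD4+ than in CD8+ T cells by a log2 fold change of −0.35 (SE 0.0714, adjusted *P* = 0.00182) and higher in CD8.1 than in CD8.2 cells by 0.29 (SE 0.0713, adjusted *P* = 0.00744). The changes were small, and in order of mean level (CD8.1, B6 CD8+, CD8.2, B6 CD4+) no neighbouring groups differed past the threshold.

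**Figure D3:**
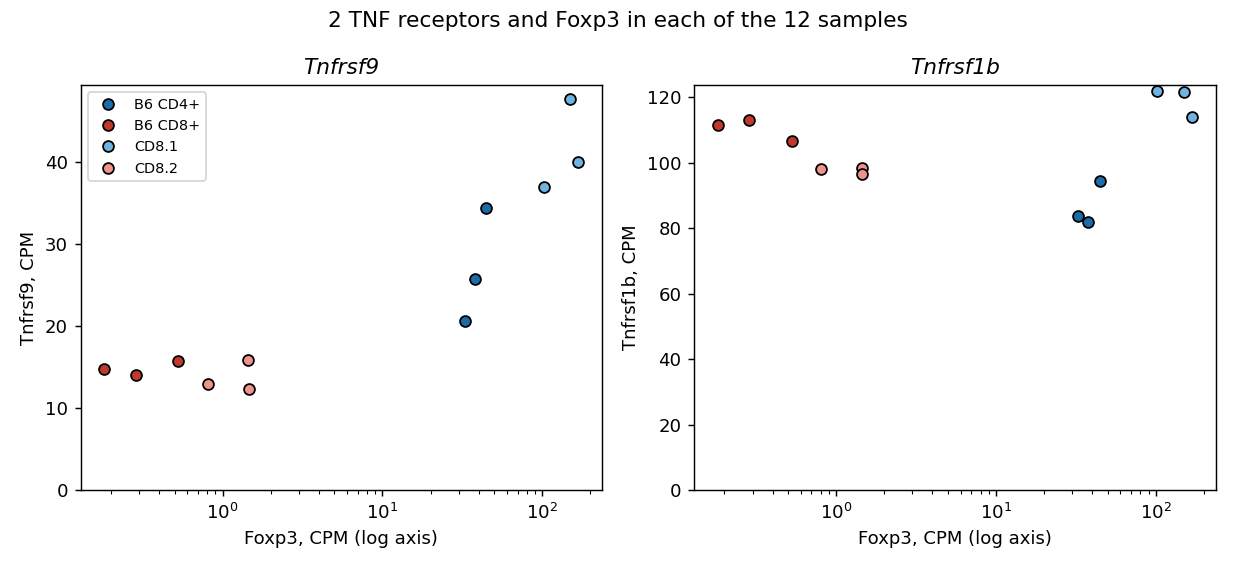
*Tnfrsf9* (left) and *Tnfrsf1b* (right) in CPM against *Foxp3* in CPM (log axis) in each of the 12 samples, coloured by group. *Tnfrsf9* is at 20.6 CPM or more in the 6 samples with *Foxp3* at 32.6 CPM or more and at 15.9 CPM or less in the others, while *Tnfrsf1b* in B6 CD4+ samples lies below that of both cytotoxic groups.

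The remaining receptors showed no lineage difference past the threshold in either strain in the fit of all 12 samples without a replicate block. *Cd27*, the receptor of CD70 (chr6:125232622-125237010, minus strand, overlapping *Vamp1* on the other strand outside its exons), was at 202, 211 and 205 CPM in B6 CD4+, 208, 222 and 196 CPM in B6 CD8+, 205, 258 and 245 CPM in CD8.1 cells and 220, 214 and 214 CPM in CD8.2 cells. CD4+ and CD8+ samples overlapped, as did CD8.1 and CD8.2 samples, while all CD8.2 samples were above all B6 CD4+ samples, and the log2 fold change between the lineages was −0.02 in B6 mice (95% interval −0.19 to 0.15) and 0.12 in CD8Dual mice (95% interval −0.05 to 0.30). Without CD8.1 replicate 1, the lowest of its group, the change in CD8Dual mice was 0.20 with an adjusted *P* of 0.0208 (adjusted *P* 0.0208 to 0.721 over all alternatives). This was the only 1 of 21 alternatives in which *Cd27* passed there. In that fit 5013 of all tested genes passed, against 3771 with all samples. *Tnfrsf26* lies beside *Tnfrsf22* and *Tnfrsf23*, which encode decoy receptors of TRAIL, and shares exon sequence with the antisense gene *E230032D23Rik* (chr7:143607659-143628722, minus strand), so that reads of these genes may not be told apart where strand is not used. It stood at 37.9, 38.5 and 38.7 CPM in B6 CD4+, 43.0, 43.4 and 46.9 CPM in B6 CD8+, 52.3, 43.7 and 44.9 CPM in CD8.1 cells and 47.2, 47.7 and 52.1 CPM in CD8.2 cells. The 3 B6 CD4+ samples were below all the other samples, and the log2 fold change between CD4+ and CD8+ T cells was −0.21 (SE 0.0839, adjusted *P* = 0.0858). It passed the threshold in 2 of 21 alternatives (adjusted *P* 0.0262 to 0.235 over all of them). Between CD8.1 and CD8.2 cells the change was −0.06 (95% interval −0.24 to 0.11).

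Of the ligands, *Fasl* (chr1:161780689-161788495, minus strand) was higher in helper than in cytotoxic T cells of both strains, although Fas ligand is known as a killing molecule of activated cytotoxic T cells. It was at 7.64, 7.59 and 7.44 CPM in B6 CD4+, 2.09, 1.71 and 1.59 CPM in B6 CD8+, 6.30, 4.60 and 7.50 CPM in CD8.1 cells and 0.724, 1.06 and 0.437 CPM in CD8.2 cells. These levels rest on 168 to 176, 33 to 51, 104 to 158 and 15 to 19 counts per sample, respectively. All helper samples were above all cytotoxic samples, and all CD8.2 samples were below all B6 CD8+ samples. The difference was 4.19-fold in B6 mice (log2 fold change 2.07, SE 0.238, adjusted *P* = 8.78e-06) and 8.74-fold in CD8Dual mice (3.13, SE 0.272, adjusted *P* = 4.99e-07). The difference between these changes was 1.06 (SE 0.366, adjusted *P* = 0.214).

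*Tnfsf14*, which encodes LIGHT, a ligand of the receptors HVEM and LTβR, had the opposite pattern (chr17:57189492-57194177, minus strand). It stood at 1.73, 2.11 and 2.81 CPM in B6 CD4+ and 9.09, 9.49 and 11.5 CPM in B6 CD8+ T cells, and at 3.63, 6.50 and 4.99 CPM in CD8.1 cells and 7.32, 8.56 and 7.64 CPM in CD8.2 cells. The helper samples were below the cytotoxic samples in both strains, with a narrower gap in CD8Dual mice. It was 4.51-fold lower in CD4+ than in CD8+ T cells (log2 fold change −2.17, SE 0.217, adjusted *P* = 1.94e-06), and in CD8.1 against CD8.2 cells the log2 fold change was −0.63 (SE 0.202, adjusted *P* = 0.0292). The latter passed the threshold in 15 of 21 alternatives, and lost it when CD8.1 replicate 1 or 3 or CD8.2 replicate 2 or 3 was left out (adjusted *P* 0.0595 to 0.0805, and 0.00388 to 0.116 over all alternatives). Of the 10 memory or effector markers, 9 were lower and 1 was higher in CD4+ than in CD8+ T cells. In CD8.1 against CD8.2 cells 7 were lower and 2 higher. All 10 had a positive interaction, past the threshold for 7, and their part in the result for *Tnfsf14* was not tested.

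*Tnfsf10*, which encodes TRAIL, the ligand of the death receptor *Tnfrsf10b* (chr3:27317028-27342427, plus strand), was also lower in helper T cells. Its levels were 32.1, 29.6 and 34.6 CPM in B6 CD4+, 52.0, 53.4 and 60.3 CPM in B6 CD8+, 44.1, 33.8 and 30.2 CPM in CD8.1 cells and 41.4, 50.6 and 49.2 CPM in CD8.2 cells. The groups were apart in B6 mice but overlapped in CD8Dual mice, where CD8.1 replicate 1 was above CD8.2 replicate 1. The log2 fold change was −0.78 (SE 0.126, adjusted *P* = 0.000247) in B6 and −0.39 (SE 0.126, adjusted *P* = 0.0315) in CD8Dual mice. The latter lost the threshold without CD8.1 replicate 2 or 3 or CD8.2 replicate 2 or 3 (adjusted *P* 0.0999 to 0.125, and 0.000748 to 0.125 over all alternatives).

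The signed lineage difference (helper minus cytotoxic) was compared between the strains as an interaction, CD8Dual minus B6, which uses all 12 samples. The interaction passed the threshold for 2 of the 10 genes, against 1.87% of all tested genes. The latter share rests on 245 genes, and without CD8.1 replicate 1 the interaction passed for 1356 genes and for 3 of the 10. The 2 genes were *Tnfrsf1b*, with changes of 0.29 in CD8Dual and −0.35 in B6 mice and an interaction of 0.64 on the log2 scale (SE 0.101, 95% interval 0.42 to 0.85, adjusted *P* = 0.0024), and *Tnfsf14*, with changes of −0.63 and −2.17 and so a smaller lineage difference in CD8Dual mice, and an interaction of 1.54 (SE 0.296, 95% interval 0.91 to 2.17, adjusted *P* = 0.0103). Both calls held in all 20 alternative fits. With a limit of at least 2-fold added, which is not among these fits, 1 gene was left. For *Tnfrsf9* the interaction was 0.75 (SE 0.225, adjusted *P* = 0.135) and passed the threshold in 4 of 20 alternatives, among them the one blocked on replicate number inside each strain (0.77, adjusted *P* = 0.0209, and 0.000787 to 0.35 over all alternatives). The interaction of *Tnfrsf1a* was 0.03 (95% interval −0.23 to 0.30), and those of *Cd27*, *Tnfrsf26*, *Fas* and *Tnfsf10* were 0.14, 0.15, −0.37 and 0.40 with adjusted *P* of 0.346 or more.

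Helper T cells of the 2 strains differed in 4 of the 10 genes, against 12.8% of all tested genes, and all 4 were higher in the CD8.1 group, against 6.94% of tested genes. *Tnfsf14* was 2.27-fold higher (log2 fold change 1.18, SE 0.224, adjusted *P* = 0.00397), *Tnfrsf9* was higher by 0.62 (SE 0.154, adjusted *P* = 0.0167), *Tnfrsf1b* by 0.46 (SE 0.0715, adjusted *P* = 0.00117) and *Tnfrsf26* by 0.29 (SE 0.0840, adjusted *P* = 0.0345). The samples of these 4 genes did not overlap between the groups, against 25.5% of all tested genes. The 12.8% are 1674 genes, which became 765 without B6 CD4+ replicate 1, 872 without B6 CD4+ replicate 2, 845 without CD8.1 replicate 2 and 2958 without CD8.1 replicate 1, with 2, 2, 3 and 4 of the 10 genes, respectively. *Tnfrsf9* lost the threshold without B6 CD4+ replicate 1 or 2 or CD8.1 replicate 2 (adjusted *P* 0.0669 to 0.0789, and 3.08e-06 to 0.0789 over all alternatives), and *Tnfrsf26* passed it in only 8 of 21 alternatives (adjusted *P* 0.0143 to 0.136). *Fasl* stood at −0.30 (95% interval −0.76 to 0.16) and *Tnfrsf25* at 0.07 (95% interval −0.13 to 0.27). With these 4 genes moved 9 of the 10 regulatory T cell markers (summed 559 to 639 CPM in CD8.1 against 221 to 325 CPM in B6 CD4+ samples) and 9 of the 10 memory or effector markers, which were higher in CD8.1 cells, among the latter *Cd44* at 67.9 to 77.8 CPM against 33.4 to 37.5 CPM in B6 CD4+ T cells. The summed B cell and myeloid markers were also higher in all CD8.1 than in all B6 CD4+ samples, and the part of any of these markers in the differences was not tested.

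Cytotoxic T cells of the 2 strains differed in 2 of the 10 genes, against 7.94% of all tested genes (3.29% higher and 4.66% lower). *Fas* was 1.50-fold higher in CD8.2 cells than in B6 CD8+ T cells (log2 fold change 0.58, SE 0.116, adjusted *P* = 0.0068), and *Fasl* was 2.57-fold lower (−1.36, SE 0.294, adjusted *P* = 0.0114). The receptor and its ligand thus differed in opposite directions. The samples did not overlap for 6 of the 10 genes, against 36.3% of all tested genes. The 7.94% are 1042 genes, which became 476 or 431 without B6 CD8+ replicate 1 or 2, 554, 441 or 440 without CD8.2 replicate 1, 2 or 3, and 1913 without CD8.1 replicate 1, with 1 or 2 of the 10 genes in each. The call of *Fas* held in all 21 alternative fits, which do not include the fold limits. *Fasl* lost its call without B6 CD8+ replicate 1 (adjusted *P* = 0.0533) or CD8.2 replicate 3 (adjusted *P* = 0.0773, the highest over all alternatives, the lowest being 8.14e-05). Of the memory or effector markers 4 of 10 were lower in CD8.2 cells. The natural killer cell markers summed to 3.62 to 5.33 CPM against 9.33 to 15.1 CPM in B6 CD8+ T cells. Of the 5 tested, 2 were lower past the threshold, as *Fasl* was. The widest gap in CPM was that of *Klre1*, at 6.82 CPM in B6 CD8+ and 0.435 CPM in CD8.2 cells. In the same order *Klra4* was at 1.84 and 0.705 CPM and *Klrb1c* at 1.90 and 1.50 CPM. *Tyrobp* was at 1.24 and 1.16 CPM, *Fcer1g* at 0.512 and 0.355 CPM and *Ncr1* at 0.0563 and 0.0380 CPM. In B6 CD4+ T cells, where mean *Fasl* was highest, the natural killer cell markers summed to 1.00 to 2.04 CPM. The part of these markers in the result was not tested. The comparisons between strains share their samples with those between lineages and are not independent of them.

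**Figure D4:**
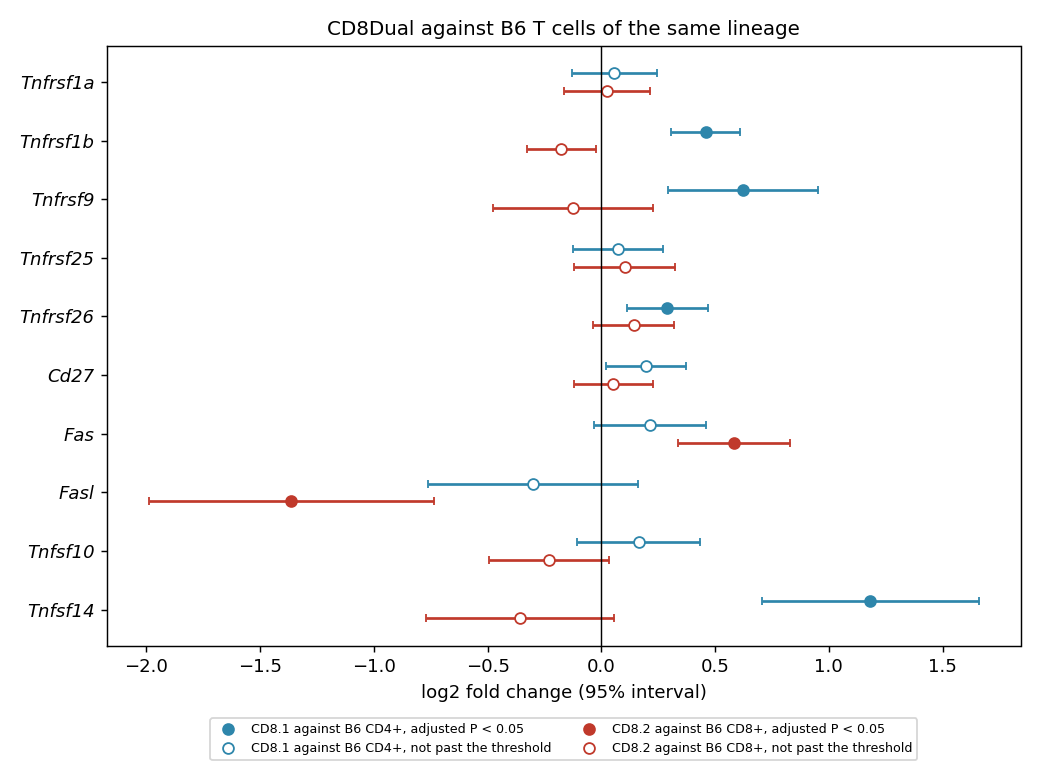
Log2 fold change with its 95% interval (horizontal axis) of each gene between CD8Dual and B6 T cells, for CD8.1 against B6 CD4+ (blue) and CD8.2 against B6 CD8+ (red). Filled points have an adjusted *P* under 0.05, which are 4 genes on the right of 0 for the helper T cells and *Fas* and *Fasl* on opposite sides for the cytotoxic T cells.

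Comparisons across strain and lineage completed the order of levels. CD8.1 and B6 CD8+ T cells differed in 7 of the 10 genes, against 39.1% of all tested genes, and B6 CD4+ and CD8.2 cells in 7, against 26.9%. *Fasl* ran from B6 CD4+ and CD8.1 cells, which did not differ past the threshold, to B6 CD8+ and then CD8.2 cells. *Tnfsf14* ran from B6 CD8+ and CD8.2 cells, which did not differ past the threshold, to CD8.1 and then B6 CD4+ T cells, each lower than the group before. *Fas*, *Cd27*, *Tnfrsf26* and *Tnfrsf1b* had no neighbouring groups that differed past the threshold.

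Genes whose log2 CPM followed these patterns most closely over the 12 samples were found by Pearson correlation, given as a description of samples that share 4 groups. *Tnfrsf25* was most like *Zbtb7b* (r = 0.995), the ThPOK gene, followed by *Gatsl3* (0.993) and *Tesc* (0.991). *Fasl* was most like *Igfbp4* (0.973), *Slc1a4* (0.965) and *A530021J07Rik* (0.965). *Tnfsf14* was most like the T cell receptor variable segments *Trbv14* (0.985) and *Trbv17* (0.973), and *C1qbp* (0.970).

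Other receptors of the family included larger lineage differences. Of 21 such receptors 14 were tested, of which 5 were higher and 2 lower in CD4+ than in CD8+ T cells, and 4 higher and 2 lower in CD8.1 cells than in CD8.2 cells, with median log2 fold changes of 0.16 and 0.51, beside 23.1% and 28.7% of all tested genes that differed. *Tnfrsf4*, the OX40 co-stimulatory receptor, was at 34.1 ± 12.2 CPM in B6 CD4+, 0.608 ± 0.189 CPM in B6 CD8+, 73.8 ± 14.0 CPM in CD8.1 cells and 1.06 ± 0.164 CPM in CD8.2 cells (log2 fold changes 5.83 and 6.15). *Tnfrsf4* and *Tnfrsf18* are also among the regulatory T cell markers. *Tnfrsf8*, which encodes CD30, had 9 to 27 counts per sample in B6 CD4+ and 15 to 61 in CD8.1 cells, and 0 to 2 counts per sample in both cytotoxic groups. *Tnfrsf19* passed in B6 mice (2.21) and stood at 1.28 in CD8Dual mice, on 28 counts or fewer per sample. *Tnfrsf10b*, the death receptor of TRAIL, was lower in helper T cells by −0.98 and −0.88, the same direction as its ligand *Tnfsf10*.

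Of 15 other ligands 8 were tested, of which 5 were higher and 1 lower in helper T cells in both comparisons, with medians of 1.04 and 1.22, where 11.4% and 14.9% of all tested genes were higher. *Cd40lg*, the CD40 ligand of helper T cells, was at 111 ± 3.77 CPM in B6 CD4+ and 89.0 ± 4.66 CPM in CD8.1 cells, against 0.879 ± 0.178 and 1.37 ± 0.161 CPM in the cytotoxic groups. It was also the only one of these ligands whose lineage difference differed between the strains (−0.94, adjusted *P* = 0.0179). *Tnfsf11*, which encodes RANKL, was higher by 2.85 and 3.46, *Tnf* by 1.17 and 1.28, and *Tnfsf4*, on 0 to 29 counts per sample, by 3.46 and 2.33 on the log2 scale.

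Signalling genes downstream of these receptors passed at shares near those of all tested genes (23.1% in B6 and 28.7% in CD8Dual mice). Of 8 TRAF adaptors and partners, all tested, 1 was higher and 1 lower in either comparison, with medians of −0.03 and 0.03. *Traf1* was lower in helper T cells of both strains (−0.74 and −0.54). *Traf5* passed only in B6 mice (0.46, against 0.07) and *Tank* only in CD8Dual mice (0.30, against 0.23), and neither differed between the strains by the interaction. Of 21 death receptor signalling genes, all tested, 4 were higher and 2 lower in B6 and 3 higher and 3 lower in CD8Dual mice, with median log2 fold changes of 0.00383 and 0.04. *Bid*, which links death receptors to mitochondria, was lower in helper T cells (−0.95 and −0.57), and *Birc3*, an inhibitor of apoptosis, was higher (0.39 and 0.41). *Ripk1*, a kinase recruited to TNFR1, was lower in helper T cells of both strains (−0.34 and −0.36), while the caspase gene *Casp6* passed in B6 mice (0.44) and stood at 0.26 in CD8Dual mice. None of the 21 genes had an interaction past the threshold.

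**Figure D5:**
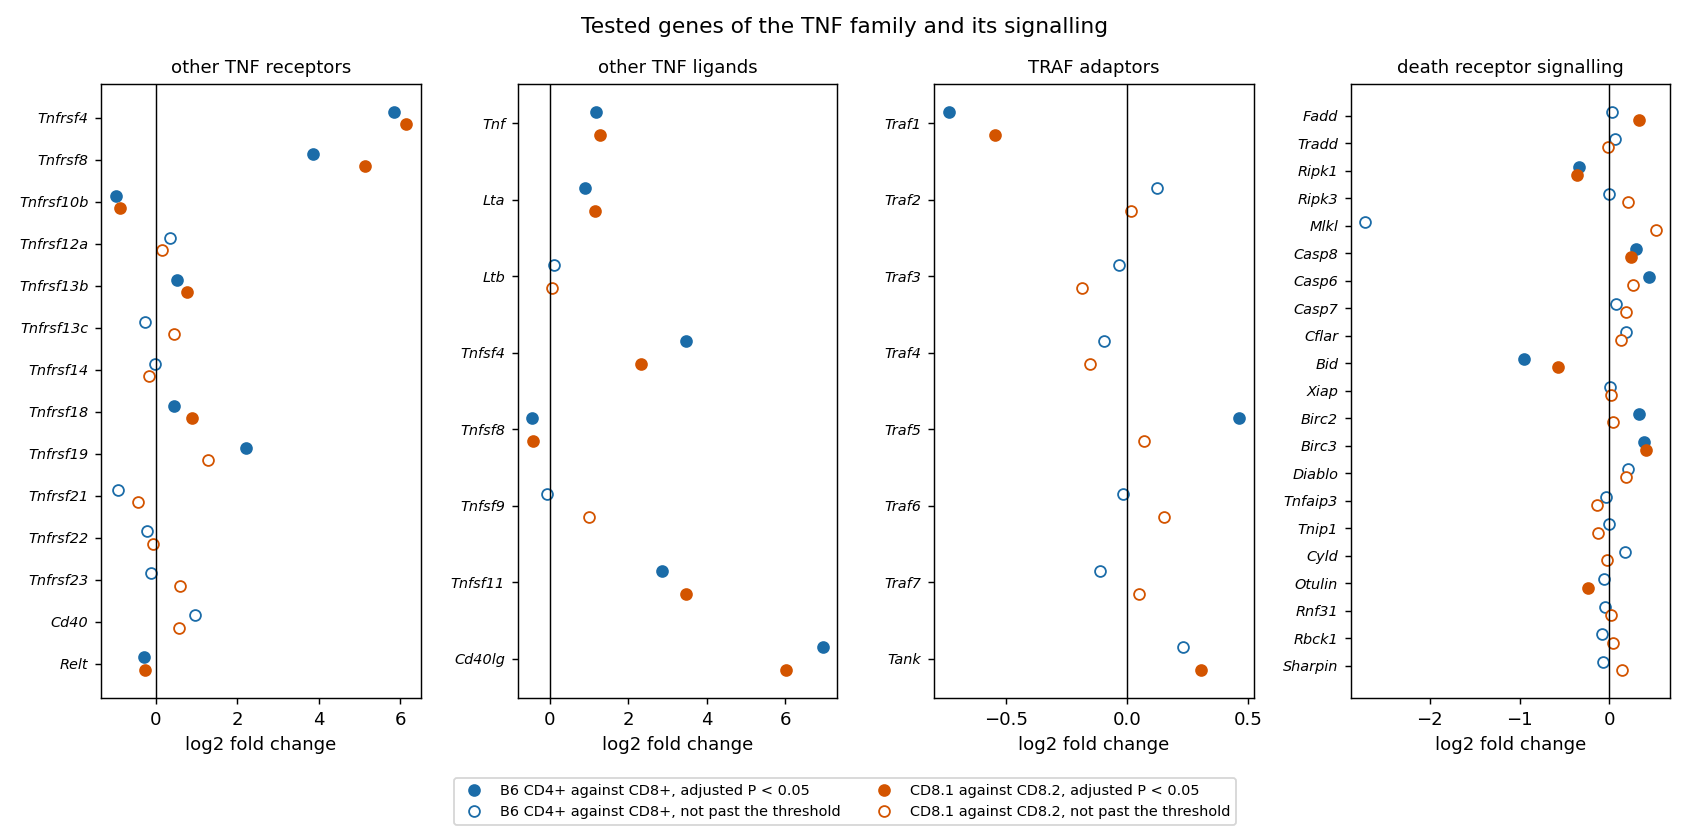
Log2 fold change (horizontal axes, scaled per panel) of the tested genes of 4 lists between helper and cytotoxic T cells, in B6 mice (blue) and CD8Dual mice (orange), with filled points at an adjusted *P* under 0.05. *Cd40lg* and *Tnfrsf4* lie at 5.83 or above in both strains, whereas TRAF adaptors lie between −0.74 and 0.46.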

How the data were processed

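RNA of sorted LN T cells from B6 and CD8Dual mice was measured in 12 samples, 3 in each of 4 groups, which were assigned from the sample labels. Per the study's methods, the authors prepared libraries with a low-input kit, aligned read pairs to mm10 with STAR and obtained counts with RSEM. The deposited table holds whole-number counts per gene, not normalized. Its column names refer to STAR counts, so which tool gave the deposited numbers is not settled. Tool versions, the annotation release and the use of strand are not given in the sources used here. All columns were matched to samples by name, with 0 unmapped. Positions and exon lengths were taken from GENCODE M21 on GRCm38, and promoters from RefSeq on GRCm38.p6.

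Counts were analysed with edgeR 4.0.16 in R 4.3.3 (TMM, filterByExpr, glmQLFit, glmQLFTest) in 1 model of 4 group means, and *P* values were adjusted by Benjamini-Hochberg over 13118 tested genes. SEs came from the log2 fold change and the square root of F, and 95% intervals from the t quantile. A prior count of 2 was used for log2 CPM. A count of 3, the floor, equals 0.0875 to 0.167 CPM. Intervals cover the spread between samples, and at 18667474 counts or more per sample low genes such as *Fasl* carry the largest counting error. All 10 genes are named, with up to 4 genes per list by largest change among those called in either strain, and the 3 most correlated genes for the 3 genes of widest range. A gene of the death receptor signalling list is not reported here and was left out of its counts. The genes and lists were chosen with earlier results of these data known. The alternatives were DESeq2 1.42.0, limma 3.58.1, other scaling, filters, fold limits, replicate blocks and leaving out each sample. Fold limits were applied to the counts of genes only, and are not among the alternatives counted for a single gene. No replicates differed by as little as sampling noise.

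Replicate numbers, from the sample titles, were checked for pairing by correlating deviations from the group means. In B6 mice, CD4+ and CD8+ samples of the same number correlated at a mean of 0.174 (lowest 0.126). Those of different numbers had a mean of −0.0864 (highest 0.0999), so the numbers may pair the B6 samples. For CD8.1 and CD8.2 cells the means were 0.0686 (lowest −0.00388) and −0.0343, which leaves pairing undecided. Deviations sum to 0 within a group, so both means depend on each other, and pairing was not tested.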

Additional observations from a re-analysis of the deposited data

Results flagged for a closer look

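The lineage difference of 2 genes differed between the strains by the interaction test across all genes. For *Tnfrsf1b*, the difference of CD8.1 minus CD8.2 and CD4+ minus CD8+ was 0.64 on the log2 scale (adjusted *P* = 0.0024, edgeR), with all 3 CD4+ samples below the CD8+ samples and all 3 CD8.1 samples above the CD8.2 samples. For *Tnfsf14* this signed difference was 1.54 (adjusted *P* = 0.0103, edgeR), with helper samples below cytotoxic samples in both strains, by less in CD8Dual mice.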

How the results depend on the processing

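Over 1460 recomputed log2 fold changes of the 10 genes, 1409 stayed on their side of the threshold, 32 no longer passed, 19 newly passed and 0 of those that passed in either fit changed sign. With a fold change above 5 and unadjusted *P* under 0.05, the genes counted were 0 for B6 CD4+ against B6 CD8+, 1 for CD8.1 against CD8.2, 0 for CD8.1 against B6 CD4+, 0 for CD8.2 against B6 CD8+, 0 for CD8.1 against B6 CD8+, 1 for B6 CD4+ against CD8.2 and 0 for the interaction. With an adjusted *P* under 0.05 and at least a 2-fold change they were 3, 3, 1, 1, 3, 3 and 1 in the same order. Leaving out 1 sample at a time gave 7 to 8, 5 to 7, 2 to 4, 1 to 2, 7 to 8, 7 to 9 and 2 to 3 genes in this order. A fit to only the groups compared gave 5 genes for CD8.1 against CD8.2 and 2 genes for CD8.1 against B6 CD4+. It has no separate value for the interaction. Leaving out CD8.1 replicate 1 and CD8.2 replicate 3 together, chosen after seeing the data, gave 1 gene for CD8.2 against B6 CD8+. The causes of these changes other than the stricter limits were not tested. With a block on replicate number inside each strain, *Fas* passed between CD4+ and CD8+ T cells (0.30, adjusted *P* = 0.0326) and between CD4+ and CD8.2 cells (adjusted *P* = 0.0287), and *Tnfrsf9* passed in the interaction (0.77, adjusted *P* = 0.0209), while under 1 replicate block across all groups *Tnfsf10* no longer passed between CD8.1 and CD8.2 cells (adjusted *P* = 0.0519). DESeq2 size factors moved the median of all genes by at most 0.00761 on the log2 scale. *Fasl* in CD8.2 cells, with 15 to 19 counts per sample, is limited most by depth.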
